A study of Homo sapiens with 8 samples.

Results

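The 37 genes described here belong to the unfolded protein response and to the stress program of the transcription factor ATF4. They were taken by gene symbol from the 17649 genes of the normalized expression table, and each had 1 row in it. MDA-MB-231 is an established, estrogen receptor-negative human breast cancer cell line. Cells of this line were grown in flasks at low glucose and received either PBS (control, n = 4 cultures) or 1 μM carboxymethyllysine (CML, an advanced glycation end product derived from lysine; n = 4 cultures) for 48 hours, and their RNA was sequenced. Levels are given as CPM, that is, reads per gene after scaling every library alike, and the comparison asks whether CML moved the transcripts of these stress programs.

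The unfolded protein response watches over protein folding in the endoplasmic reticulum (ER). Its sensors IRE1 (encoded by ERN1), PERK (EIF2AK3) and ATF6 sit in the ER membrane, and when misfolded proteins draw the chaperone BiP (HSPA5) away from them they activate the factors XBP1, ATF4 and cleaved ATF6. These factors raise the transcription of chaperones, disulfide isomerases and components of ER-associated degradation, the route that returns misfolded proteins to the cytosol for destruction. ATF4 is also made when PERK or a related kinase phosphorylates the translation factor eIF2α, and it then raises genes of amino acid synthesis and uptake together with DDIT3 (CHOP), TRIB3 and CHAC1. The strongest inducible members of both arms are long used as transcript readouts of ER stress. XBP1 splicing, ATF6 cleavage and translation of the ATF4 mRNA are steps that a total CPM per gene does not show.

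Promoters of these genes carry short elements through which the response is known to act. Of the promoters that hold a match to such an element, 6 picked as examples are shown. RefSeq promoters from 250 bases before to 50 bases after the transcription start (GRCh38.p14) were held for 35 of the 37 members and for 47 starts, and for neither PDIA3 nor DERL1. The ER stress response element (ERSE) was searched as CCAAT, then 9 bases of any kind, then CCACG. ERSE-II was ATTGG, 1 base of any kind, then CCACG, the C/EBP-ATF response element (CARE) that binds ATF4 was TGATGNAA, and the unfolded protein response element (UPRE) was TGACGTGG, all on both strands. Capitals mark the matches, and on the minus strand of a promoter they show the reverse complement.
HSPA5, chr9:125241294-125241593, minus strand: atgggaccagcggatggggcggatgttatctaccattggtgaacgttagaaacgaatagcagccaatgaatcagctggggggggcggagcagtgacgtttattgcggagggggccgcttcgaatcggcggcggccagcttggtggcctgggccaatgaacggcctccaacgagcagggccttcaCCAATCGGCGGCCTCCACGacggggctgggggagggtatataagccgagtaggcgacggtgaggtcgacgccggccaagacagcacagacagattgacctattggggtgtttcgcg
HSP90B1, chr12:103930160-103930459, plus strand: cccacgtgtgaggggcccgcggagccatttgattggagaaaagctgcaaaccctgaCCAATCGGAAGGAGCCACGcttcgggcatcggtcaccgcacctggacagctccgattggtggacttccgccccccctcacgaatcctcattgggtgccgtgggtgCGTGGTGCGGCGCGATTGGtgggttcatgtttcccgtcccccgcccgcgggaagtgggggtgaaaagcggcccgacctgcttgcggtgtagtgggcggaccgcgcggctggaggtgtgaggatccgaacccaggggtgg
CALR, chr19:12938359-12938658, plus strand: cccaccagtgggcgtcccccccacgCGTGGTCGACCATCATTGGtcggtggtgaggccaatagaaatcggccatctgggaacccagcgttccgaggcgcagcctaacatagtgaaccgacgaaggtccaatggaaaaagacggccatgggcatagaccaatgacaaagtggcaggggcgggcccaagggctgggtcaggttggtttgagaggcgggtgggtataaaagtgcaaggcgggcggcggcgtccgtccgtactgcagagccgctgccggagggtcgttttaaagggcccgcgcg
HERPUD1, chr16:56931892-56932191, plus strand: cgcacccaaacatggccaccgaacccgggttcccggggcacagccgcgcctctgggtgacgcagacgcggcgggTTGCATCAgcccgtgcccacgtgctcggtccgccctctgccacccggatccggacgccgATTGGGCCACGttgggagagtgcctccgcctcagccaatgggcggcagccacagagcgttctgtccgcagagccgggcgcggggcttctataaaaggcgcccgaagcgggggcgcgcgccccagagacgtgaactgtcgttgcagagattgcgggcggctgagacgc
ASNS, chr7:97872359-97872658, minus strand: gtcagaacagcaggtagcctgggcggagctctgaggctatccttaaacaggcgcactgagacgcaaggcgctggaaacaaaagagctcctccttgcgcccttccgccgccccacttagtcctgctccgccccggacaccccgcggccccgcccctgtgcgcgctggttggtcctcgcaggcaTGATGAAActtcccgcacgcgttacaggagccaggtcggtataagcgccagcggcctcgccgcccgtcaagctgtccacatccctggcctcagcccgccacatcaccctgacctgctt
CHAC1, chr15:40953221-40953520, plus strand: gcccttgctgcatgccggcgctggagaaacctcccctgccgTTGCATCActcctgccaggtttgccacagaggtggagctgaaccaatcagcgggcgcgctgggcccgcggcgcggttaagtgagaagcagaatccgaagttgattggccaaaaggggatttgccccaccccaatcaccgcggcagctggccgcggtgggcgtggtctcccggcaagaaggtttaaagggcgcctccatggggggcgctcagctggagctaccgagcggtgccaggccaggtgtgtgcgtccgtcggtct
ERSE was matched in 10 of the 47 member promoters. Among all 35116 promoters of the same length, those of the members included, it was matched in 27 (0.0769%). The genes were CALR, CANX, CRELD2, ERO1B, HSP90B1, HSPA5, PDIA6 and XBP1. Overlapping promoters of CANX held the same site and were each counted. HSP90B1 held the element on both strands. ERSE-II was matched in HERPUD1, HYOU1 and SDF2L1 (0.0541% of all promoters), CARE in ASNS, CHAC1 and HERPUD1 (3.62%), and UPRE in HYOU1 (0.729%), where it overlapped an ERSE-II match. In all, 13 of the 35 members held at least 1 of these elements. A match describes these letters in this window, and binding was not measured.

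Before any comparison, the libraries were checked. The libraries held between 16161803 and 18954733 estimated reads, and each member was covered by between 658 (SDF2L1) and 221466 (HSPA5) of them in a library, so that none was near the limit of detection. Markers of the line were present, with VIM between 4014 and 4243 CPM and EGFR between 893 and 979 CPM. PGR, GREB1, TFF1 and CDH1 stayed under 1 CPM, and EPCAM was between 12.7 and 16.3 CPM. Of the markers of other cell types, PTPRC, VWF and ALB were under 1 CPM, PECAM1 was between 2.37 and 3.84 CPM and CD68 was between 152 and 181 CPM in all libraries. ESR1 and CD3E were not analysed here.

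The ER folding machinery was among the most abundant transcripts of these cells. HSPA5, the ER form of HSP70, averaged 11812 CPM over the 8 libraries and ranked 2 of 17649 genes, HSP90B1 (GRP94, the ER form of HSP90) averaged 7124 CPM and ranked 3, and CALR (calreticulin) averaged 6809 CPM and ranked 4. CANX (calnexin) ranked 7 at 3921 CPM and HYOU1 (GRP170, a large chaperone that exchanges the nucleotide of BiP) ranked 8 at 3688 CPM. Because longer transcripts yield more reads, levels of different genes were compared per kilobase of the canonical transcript. On this scale CALR was the highest member, at 3582 CPM per kb, followed by HSPA5 at 3013 and HSP90B1 at 2561. The 37 genes together took between 4.37% and 4.58% of the CPM total in each library.

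Other members lay far lower on the same scale. VLDLR, a lipoprotein receptor gene that ATF4 is known to drive, had 8.37 CPM per kb, the lowest of the 37, the PERK gene EIF2AK3 had 18.6, and the oxidase gene ERO1B had 19.95. The genes that mark an acute response were also transcribed without CML, with control means of 220.9 ± 3.87 CPM for DDIT3, 460.2 ± 28.9 CPM for TRIB3, 59.2 ± 3.46 CPM for CHAC1 and 760.7 ± 20.4 CPM for PPP1R15A (GADD34, the phosphatase subunit that reverses eIF2α phosphorylation) (SD, n = 4). Fewer cells and less RNA per cell cannot be told apart in such bulk values.

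**Figure D1:**
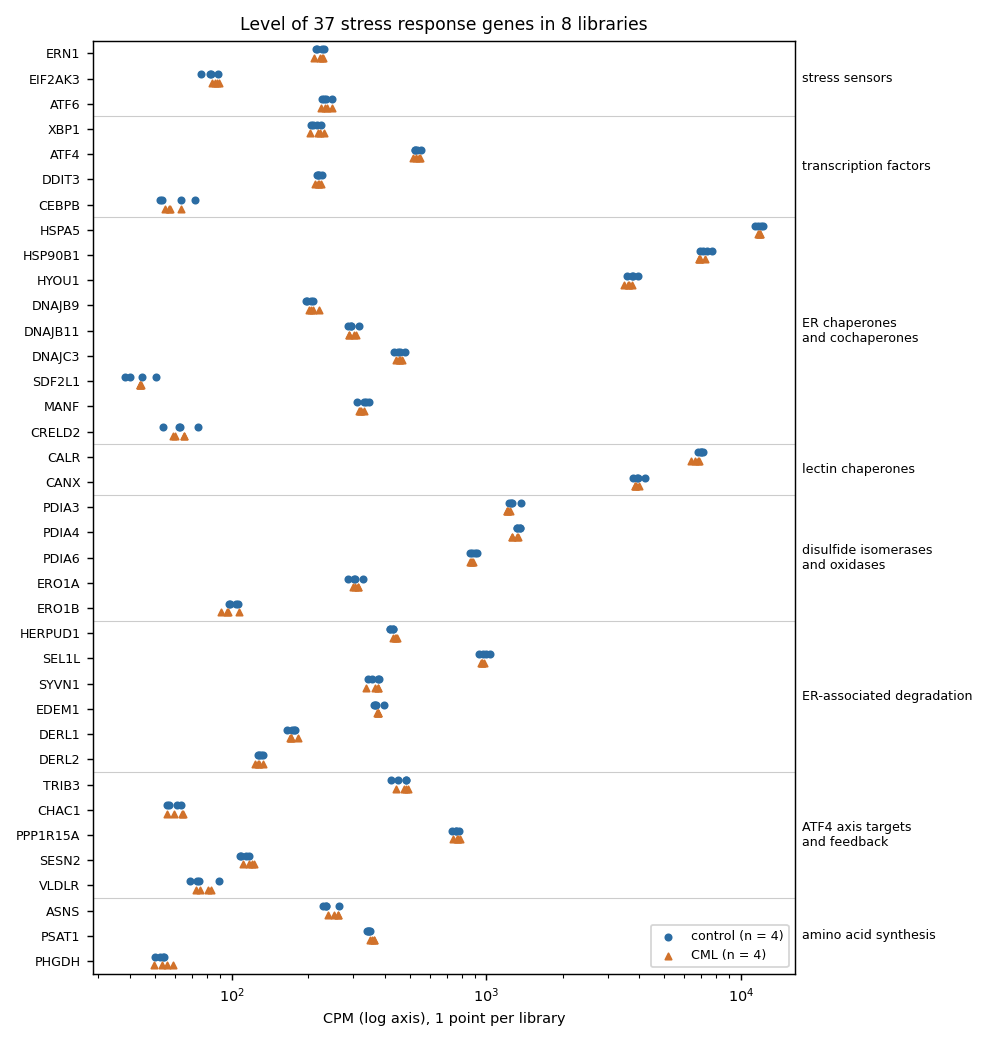
CPM (log axis) of each of the 37 genes, 1 point per library, for the 4 control (circles) and 4 CML (triangles) libraries, in order of role. The genes span from about SDF2L1 (mean 43.5 CPM) to HSPA5 (mean 11812 CPM), and within a gene the points of both groups lie close together.

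None of the 37 genes was called between CML and control cells. At an adjusted p under 0.3 (limma over all genes, Benjamini-Hochberg), the threshold the study used for its heatmap of CML genes, 158 of 17649 genes (0.895%) were called, 119 higher and 39 lower with CML, and 0 members were among them. At an unadjusted p under 0.05, 2 of the 37 (PSAT1 and HERPUD1) were found, where 7.66% of all genes passed. Of the members, 20 had a higher and 17 a lower mean log2 value with CML, and their median log2 difference was 0.0025, where genes of at least 1 CPM had a median of 0.015. The members' log2 differences on the log2(CPM + 1) scale ran from -0.069 (PDIA3) to 0.078 (EIF2AK3), or from -4.78% to 5.52% of the control mean.

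Taken gene by gene, the intervals bound the difference between these groups at 48 hours at this precision. Earlier times were not sampled. The 95% confidence interval of the log2 difference lay within 0.1 of zero for 13 members and within 0.2 for 31, and no interval reached beyond 0.297 (CEBPB). A doubling, which is a log2 difference of 1, lay outside every one of them. The p-values measure the spread between these cultures.

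**Figure D2:**
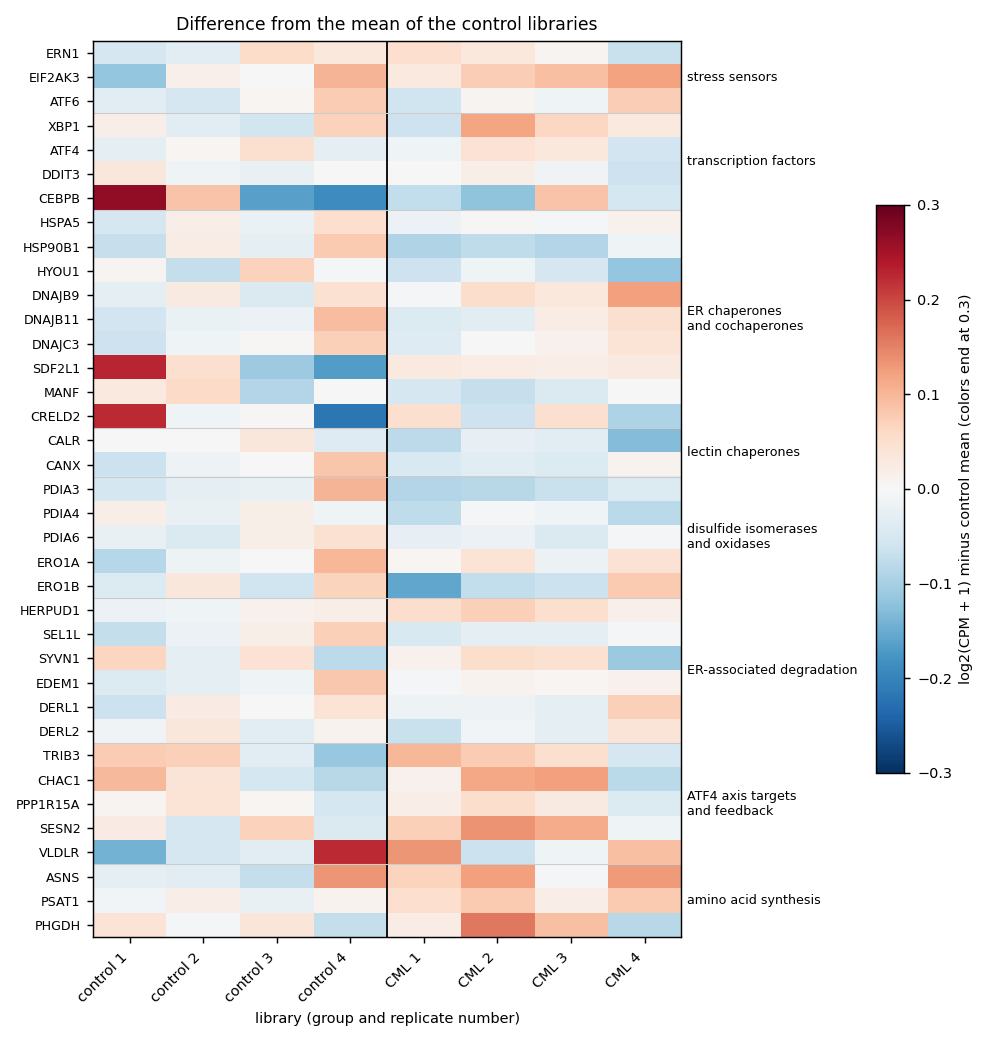
Difference of log2(CPM + 1) from the control mean in each library (columns) for the 37 genes (rows, by role). The strongest colors belong to control replicates 1 and 4 and to genes such as CEBPB, SDF2L1 and CRELD2, and no column of CML libraries is red or blue throughout.

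The sensors did not pass the test. EIF2AK3 (PERK; chr2:88556741-88628145), which led them by p, had 75.6, 82.9, 81.9 and 88.2 CPM in control replicates 1 to 4 and 83.8, 86.4, 87.3 and 89.3 CPM in the CML replicates. The lowest value was that of control replicate 1, and the groups overlapped because control replicate 4 lay within the CML range. Its log2 difference was 0.078 ± 0.046 (SE, adjusted p = 0.794, limma). ERN1, whose product splices the XBP1 mRNA, differed by 0.006 (95% confidence interval -0.074 to 0.087) and ATF6 by 0.0025 (-0.086 to 0.091).

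The transcription factors gave intervals on both sides of zero. ATF4 itself had 535.0 ± 13.3 CPM in control and 535.5 ± 16.7 CPM in CML cells (SD, n = 4), and its log2 difference of 0.001 had a 95% confidence interval from -0.065 to 0.068. DDIT3 (CHOP), the factor linked to cell death in prolonged ER stress, had 220.9 ± 3.87 CPM in control and 218.8 ± 5.07 CPM in CML cells. XBP1 (chr22:28794560-28800569) led the factors by p, with 215.9, 208.0, 205.0 and 223.5 CPM in control replicates 1 to 4 and 203.8, 231.2, 222.3 and 217.5 CPM with CML. The lowest and the highest of these 8 values were both CML libraries, and the log2 difference of 0.037 ± 0.044 (SE) had an adjusted p of 0.940 (limma). CEBPB, a partner of CHOP, was the least precisely measured member, with 60.1 ± 9.32 CPM in control and 58.1 ± 3.69 CPM in CML cells. In the annotation, exons of DDIT3 (MARS1, MBD6), CEBPB (CEBPB-AS1), HSP90B1 (TTC41P, UQCC6), PDIA3 (ELL3), PDIA6 (ATP6V1C2), DNAJB11 (TBCCD1), VLDLR (VLDLR-AS1), CRELD2 (ALG12), DERL1 (TBC1D31), DERL2 (MIS12) and SYVN1 (MRPL49) overlap exons of the gene in parentheses on the opposite strand, and reads of such pairs cannot be told apart where strand was not used. On their own strand, exons of SYVN1 overlap FAU, those of CANX overlap HMGB3P22, and those of DNAJB11 and ASNS overlap genes listed by identifier alone. The estimated reads of SYVN1 differed from whole numbers by over 0.1 read in all 8 libraries. The same held for DNAJB11 in 7 libraries, for PDIA3 and ASNS in 6 each, for DDIT3 in 4, for HSPA5 in 3 and for ATF4 in 1.

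Of the 9 ER chaperones and cochaperones, 3 had a higher and 6 a lower mean with CML, and their median log2 difference was -0.002. HSPA5 (chr9:125234853-125241343), whose values are given because it is the central chaperone of the response, had 11402, 11985, 11650 and 12245 CPM in control replicates 1 to 4. With CML it had 11671, 11849, 11770 and 11925 CPM, so that all 4 CML values lay inside the control range. The log2 difference of -0.002 had a 95% confidence interval from -0.201 to 0.198 in the fit with a variance trend, and from -0.059 to 0.056 without the trend. The SE was 0.084 with the trend, which in this fit gave HSPA5 a larger variance than its 8 values showed.

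DNAJB9 (ERdj4, a cochaperone of BiP; chr7:108569874-108574850) led this group by p. It had 197.7, 205.2, 195.4 and 208.1 CPM in control replicates 1 to 4 and 201.1, 209.0, 205.9 and 219.5 CPM with CML. The highest value was CML replicate 4, the groups overlapped, and the log2 difference was 0.050 ± 0.033 (SE, adjusted p = 0.8286, limma). The other cochaperones and small ER proteins gave log2 differences of -0.001 (DNAJB11), 0.004 (DNAJC3, which also inhibits eIF2α kinases), 0.024 (SDF2L1), -0.040 (the secreted factor MANF) and -0.014 (CRELD2). SDF2L1 ranged from 38.1 to 50.6 CPM across the control libraries and from 43.6 to 43.9 CPM across the CML libraries.

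The lectin chaperones hold newly made glycoproteins in a folding cycle. CALR (chr19:12938609-12944489) had 6967, 6974, 7134 and 6785 CPM in control replicates 1 to 4 and 6595, 6842, 6807 and 6368 CPM with CML. The groups overlapped, because control replicate 4 lay below CML replicates 2 and 3. Its log2 difference of -0.066 ± 0.056 (SE) had an adjusted p of 0.897 (limma), and that of CANX was -0.027 ± 0.044 (adjusted p = 0.976).

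Disulfide isomerases form and rearrange the disulfide bonds of secreted proteins. PDIA3 (chr15:43746438-43773278), the isomerase that works with calreticulin and calnexin, had 1232, 1253, 1258 and 1370 CPM in control replicates 1 to 4. It had 1202, 1205, 1220 and 1242 CPM in the CML replicates, and the groups overlapped by CML replicate 4, which lay above control replicate 1. The log2 difference was -0.069 ± 0.036 (SE, adjusted p = 0.749, limma). PDIA4 differed by -0.044, PDIA6 by -0.023, and the oxidases ERO1A and ERO1B, which recharge the isomerases, by 0.018 and -0.054.

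ER-associated degradation had a median log2 difference of 0.0015 over its 6 members. HERPUD1 (HERP, a membrane scaffold of the degradation complex; chr16:56932142-56944864) was the member with an unadjusted p under 0.05. It had 419.4, 420.7, 428.5 and 430.4 CPM in control replicates 1 to 4 and 440.4, 446.2, 439.0 and 428.9 CPM with CML. CML replicates 1 to 3 exceeded every control, whereas CML replicate 4 lay within the control range. The log2 difference was 0.046 ± 0.016 (SE, adjusted p = 0.553, limma), and a 2-sided exact permutation test over the 8 libraries gave p = 0.0571. The ubiquitin ligase SYVN1 (HRD1) differed by -0.001, its partner SEL1L by -0.027, the mannosidase-like lectin EDEM1 by 0.006, and DERL1 and DERL2 of the membrane channel by 0.004 and -0.016.

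All 8 members placed in the groups of the ATF4 axis and of amino acid synthesis had a higher mean with CML, and none passed the test. Of 13047 genes of at least 1 CPM, 7669 had a higher value with CML. DDIT3 and CEBPB, placed with the transcription factors, differed by -0.014 and -0.040. PPP1R15A was negative with median centring (-0.005) and without control replicate 4 (-0.003). It was also negative (-0.002) with GC content, length and mean level removed, an alternative listed below. VLDLR was negative without control replicate 1 (-0.011). SESN2 (sestrin 2, an inhibitor of mTORC1; chr1:28259518-28282491) led the ATF4 axis by p. It had 113.7, 107.8, 117.4 and 108.5 CPM in control replicates 1 to 4 and 117.5, 122.7, 120.8 and 110.8 CPM with CML. Control replicate 3 lay above CML replicate 4, and the log2 difference was 0.076 ± 0.041 (SE, adjusted p = 0.760, limma). TRIB3, a pseudokinase that restrains ATF4 and CHOP, differed by 0.043 (95% confidence interval -0.082 to 0.168), CHAC1, which degrades glutathione, by 0.043 (-0.098 to 0.183), PPP1R15A by 0.015 (-0.051 to 0.080) and VLDLR by 0.036 (-0.163 to 0.235).

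PSAT1 had the smallest p of the 37 genes. It encodes phosphoserine aminotransferase, the second enzyme of serine synthesis (chr9:78297125-78330093). It had 342.9, 349.3, 339.5 and 347.0 CPM in control replicates 1 to 4 and 356.8, 363.8, 349.7 and 363.7 CPM with CML. Every CML value lay above every control value, by a margin of 0.41 CPM between CML replicate 3 and control replicate 2, and PSAT1 was the 1 member whose groups did not overlap, where 4.34% of genes of at least 1 CPM showed no overlap. The log2 difference was 0.057 ± 0.017 (SE, adjusted p = 0.469, limma). A 2-sided exact permutation test over the 8 libraries gave p = 0.0286, the smallest that 70 labellings allow, before any correction for the number of genes. Groups that do not overlap always give this p, so it adds nothing to that separation. The permutation test was run only for PSAT1 and HERPUD1, which were picked by their limma p in the same values. PHGDH, the first enzyme of the same pathway, had 52.5 ± 1.91 CPM in control and 54.4 ± 3.90 CPM in CML cells, and ASNS (asparagine synthetase), whose promoter with its CARE match is printed above, had 240.3 ± 15.5 and 253.5 ± 10.7 CPM (SD, n = 4).

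Between replicates 1 and 4 of each group, the members varied in step with their GC content. Among the control pairs, these replicates had the lowest correlation of log2 values over genes (Pearson's r = 0.9916, the others 0.9933 to 0.9952). From replicate 1 to replicate 4 of the control group, the log2 values of single members differed by between -0.455 (CEBPB, 66.2% GC) and 0.365 (VLDLR, 42.8% GC). These extremes of single libraries were several times the differences between group means. In the CML group the same difference ran from -0.151 to 0.236. Across the 37 genes this difference had Pearson's r = -0.843 with the GC content of the transcript in the control libraries and -0.739 in the CML libraries. Over 12928 genes of at least 1 CPM the same values were -0.557 and -0.393. These are descriptions across genes of the same libraries, which share depth and preparation. Control replicate 4 held the highest of the 8 values for 13 of the 37 members, and control replicate 1 the lowest for 11.

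**Figure D3:**
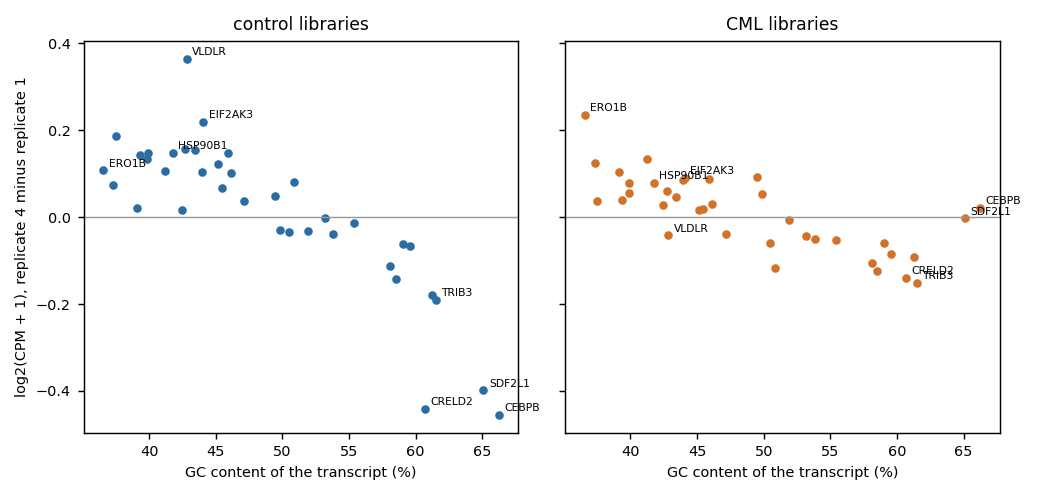
Log2(CPM + 1) of replicate 4 minus replicate 1 (vertical axis) against the GC content of the canonical transcript (horizontal axis) for the 37 genes, in control (left) and CML (right) libraries. Points fall from left to right in both panels, and GC-rich CEBPB, SDF2L1 and CRELD2 lie lowest in the control panel.

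Because of this relation, the comparison was also run on values in which the trend of every library with GC content and with transcript length had been removed. With it, 7 members were called at an adjusted p under 0.3 and all 7 were lower with CML, whereas none was called on the deposited values. Over all 12928 genes of this fit, 2.52% were called lower and 4.26% higher. Abundant genes were called more often, and in both directions. Of the 83 genes of at least 1000 CPM, the members at that level included, 15 (18.1%) were called lower and 12 higher. Of the 7 members at that level, 6 were called lower (HSP90B1, CALR, CANX, HYOU1, PDIA3 and PDIA4) and HSPA5 was not. The seventh called gene was SEL1L, at 972 CPM. Values of these genes are described further because they were called, and they were chosen after their values were seen.

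HSP90B1 had 6941, 7391, 7132 and 7693 CPM in control replicates 1 to 4 as deposited, and 6840, 6913, 6859 and 7225 CPM with CML. Its groups overlapped in the deposited values through CML replicate 4, and did not overlap after the correction, in which the log2 level was 12.84 ± 0.026 in control and 12.76 ± 0.008 in CML cells (SD, n = 4). The corrected log2 difference was -0.084 ± 0.015 (SE, adjusted p = 0.00479, limma), where the deposited difference was -0.066.

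The other called genes had smaller differences. HYOU1 had 3782, 3583, 3948 and 3748 CPM in control replicates 1 to 4 as deposited, and 3603, 3728, 3637 and 3474 CPM with CML. CANX had 3782, 3913, 3954 and 4189 CPM in control and 3831, 3870, 3849 and 3984 CPM in CML replicates. In both genes the deposited values of the groups overlapped. PDIA4 had 1355, 1316, 1353 and 1326 CPM in control replicates 1 to 4 and 1268, 1332, 1326 and 1263 CPM with CML. SEL1L had 933.2, 969.0, 993.9 and 1031 CPM in control replicates 1 to 4, and its CML values of 951.0, 960.8, 960.7 and 978.2 CPM lay inside that range. In the corrected values PDIA3 fell by 0.082 (adjusted p = 0.0143), CALR by 0.073 (0.0247), HYOU1 by 0.064 (0.0663), CANX by 0.050 (0.0864), SEL1L by 0.052 (0.176) and PDIA4 by 0.047 (0.273, limma). These are differences of a few percent, the largest being -5.68% for HSP90B1. HSPA5 differed by -0.009 ± 0.015 (SE, adjusted p = 0.894). The 8 genes of the ATF4 axis and of amino acid synthesis had higher means with CML in this fit too, with a median log2 difference of 0.037. Of them, 0 were called (smallest adjusted p 0.335, SESN2, limma). In this fit 6712 of 12928 genes had a higher value, and DDIT3 and CEBPB differed by -0.015 and -0.044. When the corrected fit left out 1 library, SESN2 and ASNS were each called higher in 2 of 8 fits.

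The correction changed both the spread and the differences. With it, 14 members had a higher and 23 a lower mean, against 20 and 17 as deposited, and 6 changed sign. The difference of CANX moved from -0.027 to -0.050. Across the 37 members the median SD of a control group fell from 0.057 to 0.032 on the log2 scale and that of a CML group from 0.043 to 0.027. The groups did not overlap for 6 members lower with CML and for 1 higher (SESN2, corrected log2 difference 0.072, adjusted p = 0.335), where 7.09% of all genes in this fit showed no overlap. HSP90B1, PDIA3, CALR, HYOU1 and CANX were called in each of 8 corrected fits that left out 1 library, SEL1L in 4 and PDIA4 in 3. HERPUD1 was called higher in 1 of these fits. Those 8 fits were added after the data were seen, as was a corrected variant without the variance trend. In that variant none of the 37 was called, and the smallest adjusted p was 0.336 (HSP90B1, limma). For each of the 7 called genes the SE in the corrected fit was smaller with the trend than without it. It was 0.015 against 0.027 for HSP90B1 and 0.017 against 0.026 for SEL1L. Quantile normalization, which ties the most abundant genes of each library to common values, gave HSP90B1 a log2 difference of 0.033 and HYOU1 one of -7.5e-16. Calls among the members were thus made with the correction and the trend together, and with neither alone.

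**Figure D4:**
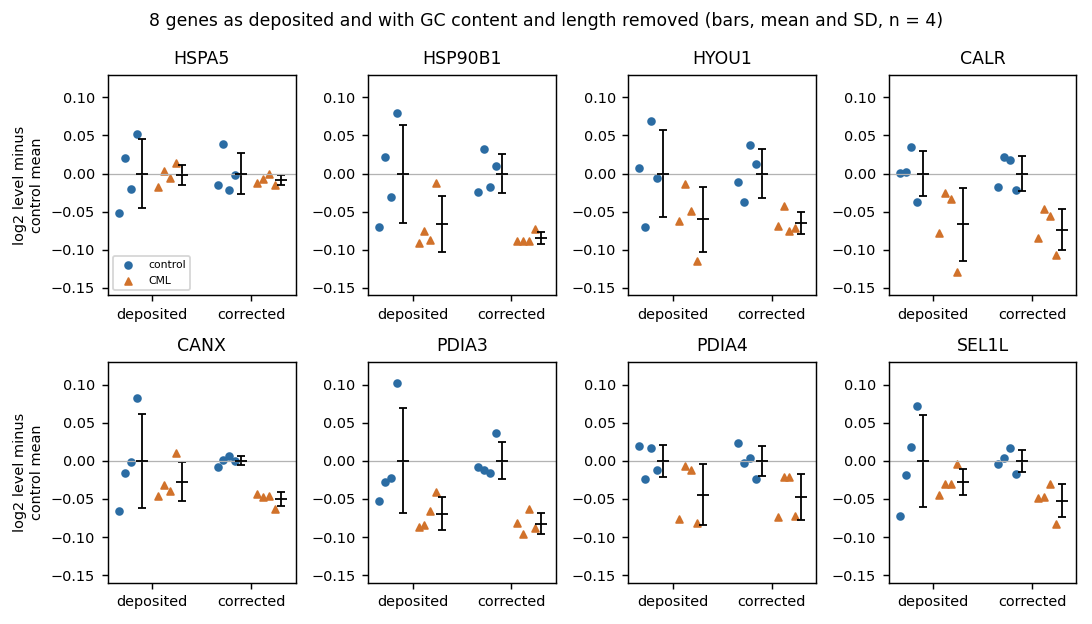
Log2 level of 8 genes relative to the control mean, as deposited and with GC content and length removed, for 4 control (circles) and 4 CML (triangles) libraries with mean and SD. After correction the CML points of HSP90B1, CALR, CANX, HYOU1, PDIA3 and SEL1L lie below all control points, those of PDIA4 overlap them and those of HSPA5 lie among them.

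**Figure D5:**
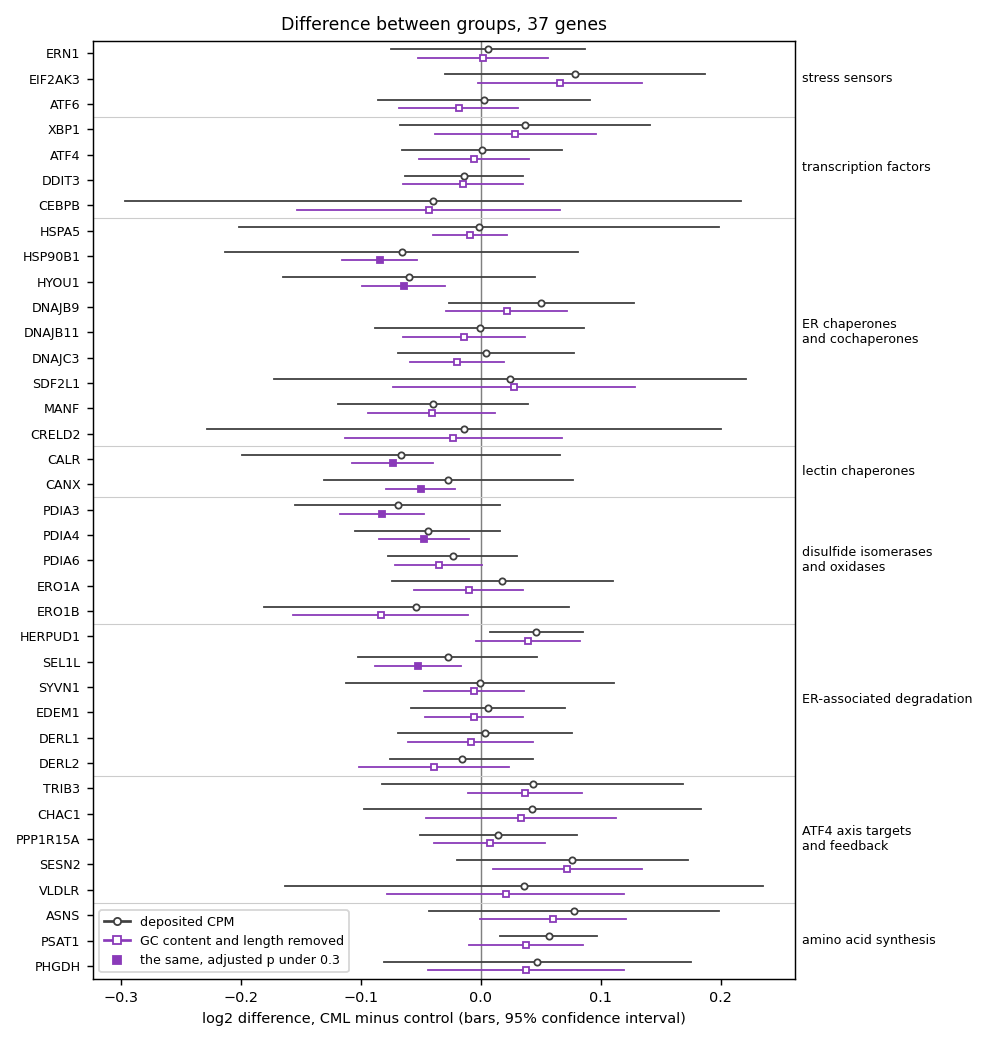
Log2 difference (CML minus control) with its 95% confidence interval for each of the 37 genes, for deposited CPM (circles) and with GC content and length removed (squares, filled where the adjusted p was under 0.3). All circles are open and 7 squares are filled, each to the left of zero, from PDIA4 at -0.047 to HSP90B1 at -0.084.

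In summed levels the 5 most abundant members (HSPA5, HSP90B1, CALR, CANX and HYOU1) took 3.32% to 3.43% of the CPM total in control libraries and 3.25% to 3.28% in CML libraries. A share divides by the CPM total of its library. That total ran from 986730 to 1010400 in control and from 1002960 to 1014120 in CML libraries. In CPM as deposited, the groups overlapped for each of the 5 genes. The summed CPM of all 37 members also overlapped, at 44180 to 46300 in control and 43810 to 44690 in CML libraries. These sums were put together after the values were seen and carry no test.

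Genes around the members were examined in 6 groups of a wider list of 154, of which 153 had a row; FGF21 was not analysed here. None of the 153 passed an adjusted p under 0.3 on the deposited values, and 14 had an unadjusted p under 0.05. Without control replicate 4 the fit called 10 of them, all higher with CML, among them DNAJC1, PSPH, EIF2B2, EIF2AK4, GARS and TARS. Of all 17649 genes that fit called 690, and 536 of these (3.04% of all genes) were higher. Median log2 differences were -0.003 for 27 genes of folding and oxidation, 0.002 for 26 of degradation and retrieval and -0.006 for 28 of the translocon and transport. They were 0.024 for 27 signalling genes, 0.023 for 32 genes of the ATF4 axis and 0.043 for 13 tRNA synthetases, where genes of at least 1 CPM had a median of 0.015.

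The genes with the smallest p of each group were named. DNAJC1, a J-domain cochaperone of the ER membrane, had 65.4 ± 2.31 CPM in control and 70.8 ± 1.35 CPM in CML cells (log2 difference 0.114, adjusted p = 0.368, limma; SD, n = 4). PSPH, the phosphatase that completes serine synthesis after PSAT1, had 45.8 ± 1.25 and 49.7 ± 1.54 CPM (0.117, adjusted p = 0.369). EIF2B2, a subunit of the exchange factor that phosphorylated eIF2α inhibits, had 68.3 ± 1.22 and 73.6 ± 2.82 CPM (0.106, adjusted p = 0.406). For these genes and for CARS1 every CML value lay above every control value. Of genes of at least 1 CPM, 4.34% showed no overlap in either direction. That share is not a like comparison, because the named genes were picked by smallest p, which favors such separation. OS9, a lectin of the degradation complex, differed by -0.062 (adjusted p = 0.489), SSR3 of the translocon by 0.061 (0.673) and the cysteinyl-tRNA synthetase gene CARS1 (listed as CARS) by 0.049 (0.549).

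With GC content and length removed, 12 of the 149 wider genes with values in that fit were called higher and 5 lower, where 4.26% of all genes in that fit were called higher and 2.52% lower. The 17 calls became 5 without CML replicate 1, 6 without CML replicate 2, 10 without CML replicate 3 and 11 without CML replicate 4. Higher were DNAJC1, VCP (the ATPase that pulls proteins out of the ER), NGLY1, EIF2B2, EIF2AK4 (GCN2, the amino acid-sensing eIF2α kinase), NFYC, PSPH, SLC7A5 (a transporter of large amino acids), MTHFD2, PYCR1, GARS and TARS. Lower were DNAJC10, OS9, HM13, SSR1 and EIF2AK2. By group, the ATF4 axis had 4 higher and 0 lower, the tRNA synthetases 2 and 0, signalling 3 and 1, degradation 2 and 2, folding 1 and 1 and the translocon 0 and 1. The smallest adjusted p was that of SLC7A5 (0.0143), which had 454.9 ± 22.6 CPM in control and 484.9 ± 21.3 CPM in CML cells as deposited (SD, n = 4). Without the variance trend the corrected fit called DNAJC1 (adjusted p = 0.295) and SLC7A5 (0.274). When the trend with mean level was removed too, 5 wider genes were called higher and 7 lower. GARS, TARS, PSPH and PYCR1 were not among them.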

How the data were processed

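RNA was sequenced from 8 cultures of MDA-MB-231 cells, 4 per group; the labels name both NextSeq and HiSeq. The values are CPM that the authors deposited, per the paper's supplement scaled by TMM factors, and the processing notes name hg38 and edgeR. For tumors, under a heading that also covers cultured cells, the supplement describes a stranded TruSeq kit and alignment to hg19 with Tophat, which differs from the hg38 of the notes. For the CML libraries themselves the aligner, the counting tool and its use of strand are not given in the sources used here. The steps of the CPM values put 1 read at 0.0535 to 0.0622 CPM, and 88.0% to 89.0% of values were whole reads within 0.1 read, so no count test was run. Counting error is only part of the spread.

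From these values, 17681 rows (32 symbols with several rows, averaged) gave 17649 genes, and log2(CPM + 1) was tested with limma 3.58.1 (R 4.3.3), with a variance trend, 2-sided, and Benjamini-Hochberg adjustment over all genes. A log2 difference on this scale understates the change of low genes. Length and GC content came from canonical transcripts of GENCODE lifted to GRCh37 and were removed per library with splines over 12928 genes of at least 1 CPM (99.1% of 13047). Gene positions and promoters are from RefSeq (GRCh38.p14), and all 37 members had a position. Alternatives were another pseudocount (0.1), a minimum of 1 CPM, separate rows, median centring, quantile normalization, no trend, the replicate number as a block, each library left out, and thresholds of 0.05. The members, lists and rules were chosen with earlier results of these data known. All 37 members are named. Values in every library are given for members with an adjusted p under 0.3 (with the correction, chosen after their values were seen) or an unadjusted p under 0.05 and for the smallest p of each role, and of the wider list the smallest p of each group is named. Nothing in the labels says that cultures came from separate passages, so p-values may measure technical spread.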

Additional observations from a re-analysis of the deposited data

Results flagged for a closer look

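Across the 37 genes and both groups, 74 groups of 4 libraries were examined for a library far from the others by Dixon's gap at the 95% level. CML replicate 4 stood apart for DERL1, a channel component of ER-associated degradation, with 182 CPM where the other CML libraries had between 169.7 and 171 CPM. Chance flags about 1 in 20 such groups, or 3.7 of 74, and 1 was flagged. The control libraries of DERL1 reached 177.8 CPM.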

How the results depend on the processing

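The count of members called at an adjusted p under 0.3 was 0 in the fit of the deposited values and under each alternative that kept GC content and length, leaving out each library included (0 in all 8 fits). It was 2 at an unadjusted p under 0.05, 7 with GC content and length removed, 7 with the replicate block as well, 6 with GC content alone removed, 9 with the mean level removed too, and 5 to 9 when the corrected fit left out 1 library. The called genes were lower with CML except, in corrected fits without 1 library, up to 2 that were higher. Several alternatives were added after the data were seen. They were GC content alone removed, the mean level removed too, both replicates 4 left out, and the corrected fits without 1 library or without the trend. Of 37 members, 18 kept the sign of their difference under all 21 alternatives counted here. Of the genes called with GC content and length removed, HSP90B1 had a difference of 0.033 under quantile normalization, HYOU1 of -7.5e-16 and CALR of -0.033. CANX had a difference of 0.0003 without control replicate 4. None of these genes was called there.

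Over all genes 158 were called, 877 with GC content and length removed (953 with the block, 391 without the trend, 774 with GC content alone, 763 with the mean level too), 73 with median centring (46 higher and 27 lower, against 119 and 39), 144 with quantile normalization (90 higher and 54 lower), 321 without both replicates 4, 0 at an adjusted p under 0.05, 1352 at an unadjusted p under 0.05, and 20 (without CML replicate 2) to 690 (without control replicate 4) leaving out 1 library, or 482 to 815 in the corrected fit. In the wider list 0 were called, 17 with the correction (18 with the block, 2 without the trend, 15 with GC content alone, 12 with the mean level too), 1 with quantile normalization (DNAJC1), 1 without both replicates 4 (CREB3L2), 14 at an unadjusted p under 0.05, and 0 to 10 leaving out 1 library (5 to 18 corrected). Causes of these shifts were not tested.

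Replicate numbers were not taken as pairs. Deviations of same-numbered libraries correlated between -0.065 and 0.334, and 4 of 8 libraries correlated best with their own number. With the replicate block on the deposited values 0 members, 189 genes in all and 1 wider gene (PSPH) were called. Depth was not limiting for the members, whose lowest coverage was 658 reads.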
